A study of Mus musculus with 6 samples.

Results

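Cytochrome P450 genes were examined in ventral dermis of mice with activated beta-catenin. The members are the genes whose symbol is Cyp followed by a digit: 102 of the 23412 genes in the expression table, in 17 families numbered by the digits after Cyp. Of these, 23 had a mean of at least 1 FPKM (fragments counted on a gene, scaled to the length of the gene and the depth of the library) over the 6 libraries and are called expressed below, as against 12560 genes of the whole table. The family was chosen by its symbols with earlier results of these data in view: it was selected on the higher FPKM of Cyp2f2 in mutants, and the expressed members were selected on their mean FPKM over the 6 libraries. The members just above the floor were Cyp11a1 and Cyp3a57 (1.10 and 1.14 FPKM), and those just below it Cyp17a1 and Cyp1a1 (0.903 and 0.865). The difference in Cyp2f2 is therefore given as a description with no p-value.

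Each of 3 mutant and 3 control mice gave 1 total RNA library. All 6 mice carried HoxB6CreERT/+, a Cre that tamoxifen switches on and that is placed under Hoxb6 control, together with R26-YFP/+, a reporter allele. Mutants also carried CatnbΔex3/+, an allele from which Cre makes a stabilised beta-catenin. Tamoxifen was given to all mice, controls included, through maternal gavage at embryonic day 16.5, and skin was taken at an age of 3 weeks. The background was mixed CD1 and C57BL/6, and the epidermis was taken off after trypsin. Cre acts only in cells with Hoxb6 activity, so a bulk library mixes recombined with other cells. In such RNA, fewer cells of a type and less RNA per cell cannot be told apart.

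P450 enzymes hold a haem group through the sulphur of a cysteine and insert an oxygen atom into their substrate. Members of families 1 to 3 mostly oxidise foreign compounds, those of family 4 mostly fatty acids, and the higher-numbered families mostly retinoids, sterols, bile acids and steroid hormones. Most sit in the endoplasmic reticulum and take electrons from the reductase Por, while mitochondrial members take them from a ferredoxin. In skin, they are known from keratinocytes, sebaceous glands and the breakdown of retinoic acid.

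The haem-binding loop is shown to let the members be compared at their active centre. The PROSITE haem-binding signature was searched in the longest GENCODE M21 coding sequence of each expressed gene, and other transcripts were not read. It was found in 19 of the 23 genes. Cyp20a1, Cyp2b10, Cyp2s1 and Cyp39a1 had no match in that sequence. The loops below are those of the genes described in most detail. Each is 30 bases, 5′ to 3′ on the coding strand, and capitals mark the codon of the cysteine that binds the haem iron.
Cyp2f2: ttttcggctggacgtcgactgTGTctggga
Cyp2e1: ttttctgcaggaaagcgcgtgTGTgttgga
Cyp26b1: tttggcggtggcgtgcggaccTGCctgggc
Cyp11a1: tttggctggggtgttcggcagTGTctgggc
Cyp27a1: ttcggctatggggttcggtctTGCctgggt
Cyp51: tttggagctgggcgtcatcgtTGTgttgga
Cyp1b1: ttctcagtgggcaaacggaggTGCatcggt
Cyp4b1: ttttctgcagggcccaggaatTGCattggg
In the mm10 genome (GRCm38), the Cyp2f2 loop spans 2 exons within chr7:27132606-27133235, and the Cyp26b1 loop lies in exon 6 of 6 at chr6:84574477-84574506 on the minus strand. Of the 30 bases, the loop of Cyp2e1 shared 21 with that of Cyp2f2, Cyp51 shared 20, Cyp11a1 18, Cyp26b1 and Cyp4b1 16, and Cyp27a1 and Cyp1b1 15. Over the 19 loops the number ran from 15 to 22, with the highest in Cyp4v3, so likeness to Cyp2f2 in this loop did not follow the family number.

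The libraries held 7799565 to 9675359 gene reads in controls and 11839144 to 13478910 in mutants, recovered from the steps of the FPKM values. The P450 genes together took 0.0435% to 0.0547% of these reads in controls and 0.0612% to 0.0698% in mutants. Counts per expressed member and library ran from 8 to 1793 reads, so the lowest genes rest on few reads. Controls 1 and 2 were high in Xist (55.5 and 66.2 FPKM) and near 0 in the Y-linked Ddx3y, while control 3 and all 3 mutants had Ddx3y between 13.2 and 19.1 FPKM. Mutant 2 also had Xist at 6.47 FPKM. Library sex therefore differs between the groups, and control 3 is the only control with Ddx3y. Fibroblast markers such as Col1a1 and Dcn were present in every library, with a summed FPKM of 2737 to 10512 in controls and 9541 to 13749 in mutants. Keratinocyte markers also remained in this tissue (485 to 614 FPKM in controls and 576 to 647 in mutants). Hair follicle markers summed to 4249, 4239 and 4157 FPKM in controls 1, 2 and 3. In mutants 1, 2 and 3 they summed to 4830, 2437 and 4108 FPKM.

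Of the 23 expressed P450 genes, 19 had a higher mean log2 value in mutants and 4 a lower one, where 71.3% of all tested genes were higher. The median log2 difference was 0.26 over the 23 genes and 0.09 over all tested genes. It is on the scale of log2(FPKM + 1), which understates the change of low genes. Without Cyp2f2, 18 of 22 genes were higher, with a median of 0.23. All 3 mutants lay above all 3 controls in 12 of the 23 genes, and in 11 of the 22 other than Cyp2f2. They did so in 13% of all tested genes. All 3 mutants lay below all 3 controls in 1, Cyp2b19, against 2.65%. Passing the floor of 1 FPKM favoured genes that were high in one group: Cyp11a1, Cyp4v3 and Cyp3a57 had a control mean under 1 and passed through the mutants. Scaling matters to these directions. Median-of-ratios scaling and quantile normalization moved the median of all genes from 0.09 to -0.01 and -0.03, a shift of about 0.1. After median-of-ratios scaling, 46.8% of all genes and 19 of the 23 P450 genes were higher, and 8 of them had every mutant above every control, against 11.9% of all genes. Those 8 were Cyp2f2, Cyp2e1, Cyp26b1, Cyp11a1, Cyp4b1, Cyp4v3, Cyp27a1 and Cyp2j9. Cyp2b19 was again below, as were 11.7% of all genes. Among the 8, Cyp2f2 prompted the choice of the family, and Cyp11a1 and Cyp4v3 passed the floor only through the mutants. Nothing is drawn from these counts.

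In limma with Benjamini-Hochberg adjustment over all 12560 genes, 0 of the 22 expressed P450 genes other than Cyp2f2 passed 0.05 in either direction, where 0.143% of all genes passed upward and 0% downward. Nothing is read from the result of that fit for Cyp2f2, whose values prompted the choice of the family. At an unadjusted p under 0.05, 7 of the 22 were higher and none lower, against 10.5% and 0.748% of all genes. The 7 include Cyp11a1 and Cyp4v3, which passed the floor only through the mutants. The upward count rests in part on that floor, and nothing is drawn from it. By limma-voom on the recovered reads, Cyp26b1 was called higher among the 22, as were 1.48% of all genes, and none was called lower, where 0.0318% of all genes were.

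**Figure D1:**
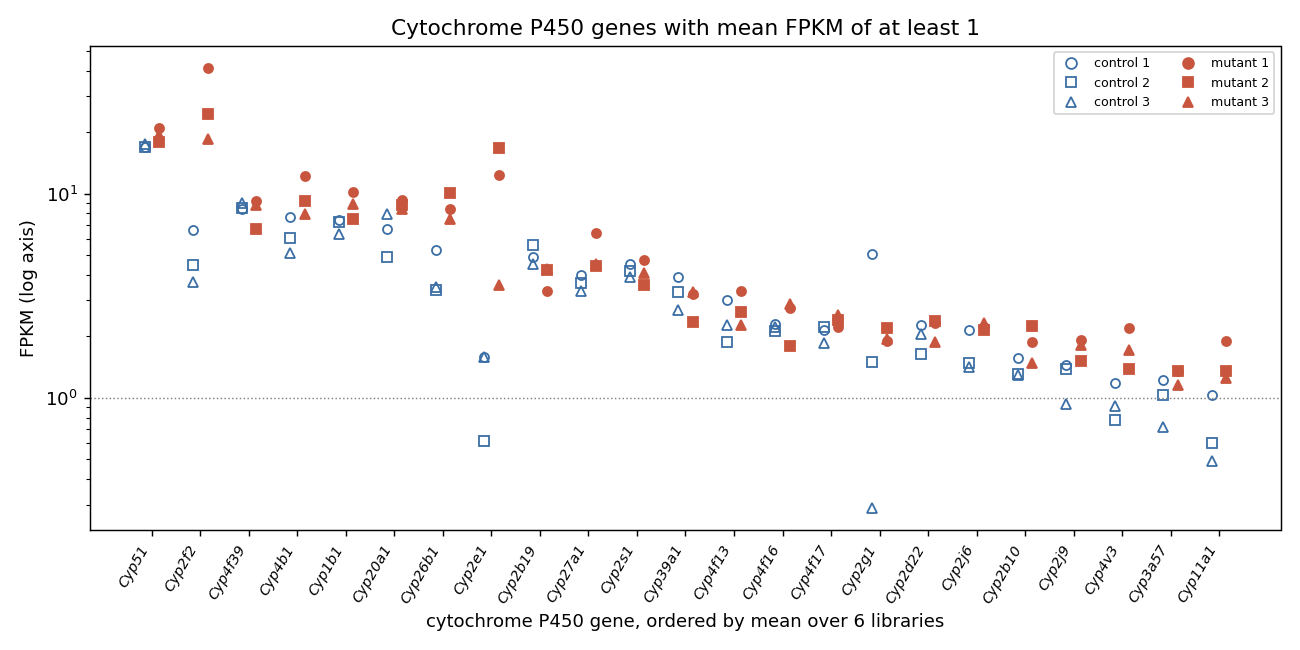
FPKM (log axis) of the 23 expressed P450 genes in each of 3 control (open) and 3 mutant (filled) libraries, ordered by the mean over all 6, with a dotted line at 1 FPKM. Cyp51 had the highest mean, and Cyp2f2 and Cyp2e1 show the widest gap between the groups, with Cyp2f2 at 3.71 to 6.62 FPKM in controls and 18.6 to 41.3 in mutants.

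Cyp2f2, known for the oxidation of naphthalene in the club cells of the mouse lung, lies at chr7:27119909-27133660 on the plus strand (ENSMUSG00000052974). It measured 6.62, 4.47 and 3.71 FPKM in controls 1, 2 and 3, and 41.3, 24.5 and 18.6 FPKM in mutants 1, 2 and 3, an order kept below. These rest on 205, 129 and 101 reads in controls and 1471, 950 and 719 in mutants. The groups did not overlap, and the lowest mutant was 2.81 times the highest control. The means were 4.93 ± 1.51 and 28.1 ± 11.8 FPKM (SD, n = 3 each), a ratio of 5.7, and the log2 difference was 2.25. None of its 50-base transcript words occurs in the transcripts of another gene, so reads of that length from Cyp2f2 differ from those of its relatives. Of 5 markers of club cells and hepatocytes, the cells best known for Cyp2f2, none was expressed, and their sum was 0.355 to 0.606 FPKM in controls and 0.402 to 0.703 in mutants. Among them, the club cell gene Scgb1a1 was at 0.251, 0 and 0 FPKM in controls and 0.328, 0.501 and 0.1 in mutants, and its part in the Cyp2f2 values was not tested.

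Cyp2e1, which oxidises ethanol and paracetamol, is on the same chromosome at chr7:140763739-140774987. It stood at 1.59, 0.617 and 1.58 FPKM in controls and at 12.3, 16.7 and 3.57 FPKM in mutants. Every mutant was above every control, but mutant 3 was far below the other mutants. The means were 1.26 ± 0.559 and 10.9 ± 6.7 FPKM (SD, n = 3), a ratio of 8.61. The log2 difference of 2.21 (SE 0.43, 95% interval 1.25 to 3.17) did not pass the test over all genes, with an adjusted p of 0.0845 by limma. Leaving out control 3 (adjusted p = 0.0306) or mutant 3 (0.00139) made it pass. It did not pass without mutant 2 (0.29), nor with library sex as a covariate, where the difference was 1.99 (0.35). Of its 50-base transcript words, 3.87% also occur in other genes.

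Among all 102 P450 genes, Cyp2f2 ranked 6, 7 and 8 by FPKM in controls and 1, 1 and 2 in mutants. It made up 6.05%, 4.85% and 4.19% of their summed FPKM in controls and 23.7%, 16.8% and 14.5% in mutants. Cyp2e1 moved from ranks 18, 24 and 16 to ranks 3, 3 and 11. The sum over all P450 genes was 109, 92.2 and 88.7 FPKM in controls and 174, 146 and 128 in mutants. Leaving out Cyp2f2 and Cyp2e1, it was 101, 87.1 and 83.4 in controls and 121, 104 and 106 in mutants. The groups stayed separate without the pair, with a smaller gap.

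**Figure D2:**
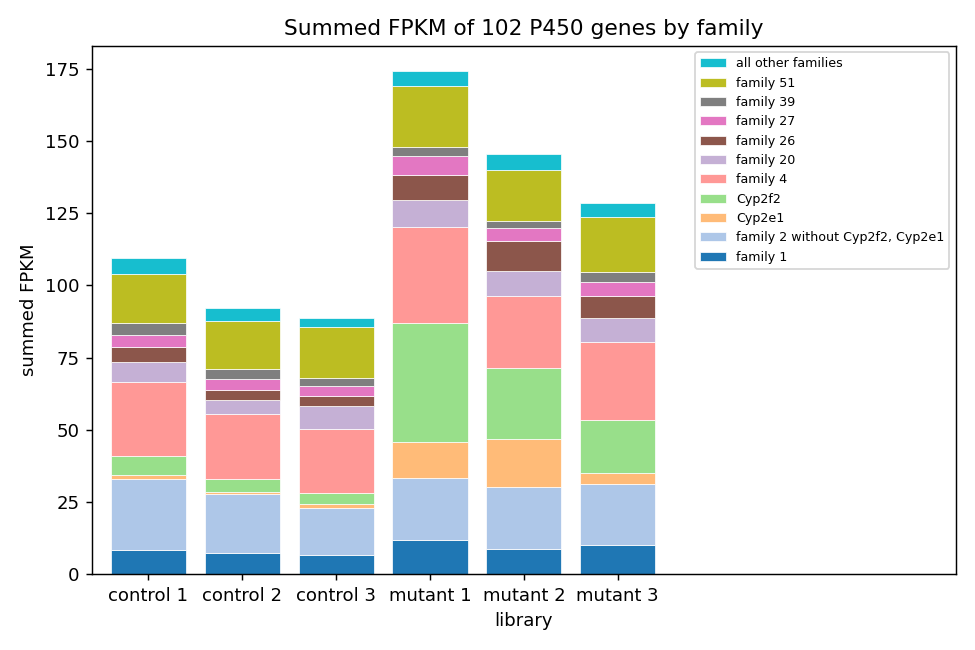
Summed FPKM of the 102 P450 genes in each library (bars), divided by family, with Cyp2f2 and Cyp2e1 shown apart from the rest of family 2. The total ran from 88.7 to 109 FPKM in the 3 controls and from 128 to 174 in the 3 mutants.

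The remaining expressed genes of family 2 differed less. In the 2J subfamily, whose enzymes make epoxides of arachidonic acid, Cyp2j9 stood at 1.45, 1.39 and 0.929 FPKM in controls and at 1.92, 1.52 and 1.81 in mutants. Its neighbour Cyp2j6 stood at 2.14, 1.49 and 1.41 FPKM in controls and at 2.23, 2.15 and 2.33 in mutants. Both genes had every mutant above every control by a narrow margin, with log2 differences of 0.29 and 0.28 (adjusted p = 0.493 for each, limma).

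Cyp2b19, an arachidonic acid epoxygenase known from keratinocytes, was the 1 expressed member with every mutant below every control. It stood at 4.9, 5.61 and 4.52 FPKM in controls and at 3.32, 4.21 and 4.29 in mutants. The log2 difference was -0.29 (SE 0.13, adjusted p = 0.466, limma), which did not pass. The 7 keratinocyte markers did not follow one direction: 5 were higher and 2 lower in mutants, all with overlapping groups, and their part in the Cyp2b19 values was not tested.

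Cyp2g1, best known from the olfactory mucosa, varied most among controls. It stood at 5.04, 1.5 and 0.289 FPKM in controls and at 1.9, 2.2 and 1.95 in mutants, on 159, 44 and 8 control reads. The mutants fell inside the range of the controls. The coefficient of variation was 109% in controls and 7.87% in mutants, and the log2 difference of 0.17 (SE 0.44, adjusted p = 0.948, limma) turned to -0.36 without control 3. With library sex as a covariate, where the comparison rests on control 3 alone and its 8 reads, it was 1.23 (adjusted p = 0.418).

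The other 3 expressed genes of family 2 overlapped between groups. Cyp2b10, an inducible enzyme of drug oxidation, had a log2 difference of 0.26 (adjusted p = 0.556, limma). Cyp2d22 had 0.10 (adjusted p = 0.869), and Cyp2s1, an enzyme known from skin and other epithelia, had -0.02 (adjusted p = 0.975). The single expressed gene of family 3, Cyp3a57, was also the second-lowest of the 23. It stood at 1.22, 1.03 and 0.716 FPKM in controls and at 1.35, 1.36 and 1.15 in mutants. The groups overlapped, with a difference of 0.21. Cyp3a57 passed the floor only through the mutants, so the difference is given without a test. Up to 8.63% of its 50-base words are shared with its near copies Cyp3a59 and Cyp3a25, so its reads may be split among them. The share was 8.7% for Cyp2b10 and 4.13% for Cyp2d22.

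**Figure D3:**
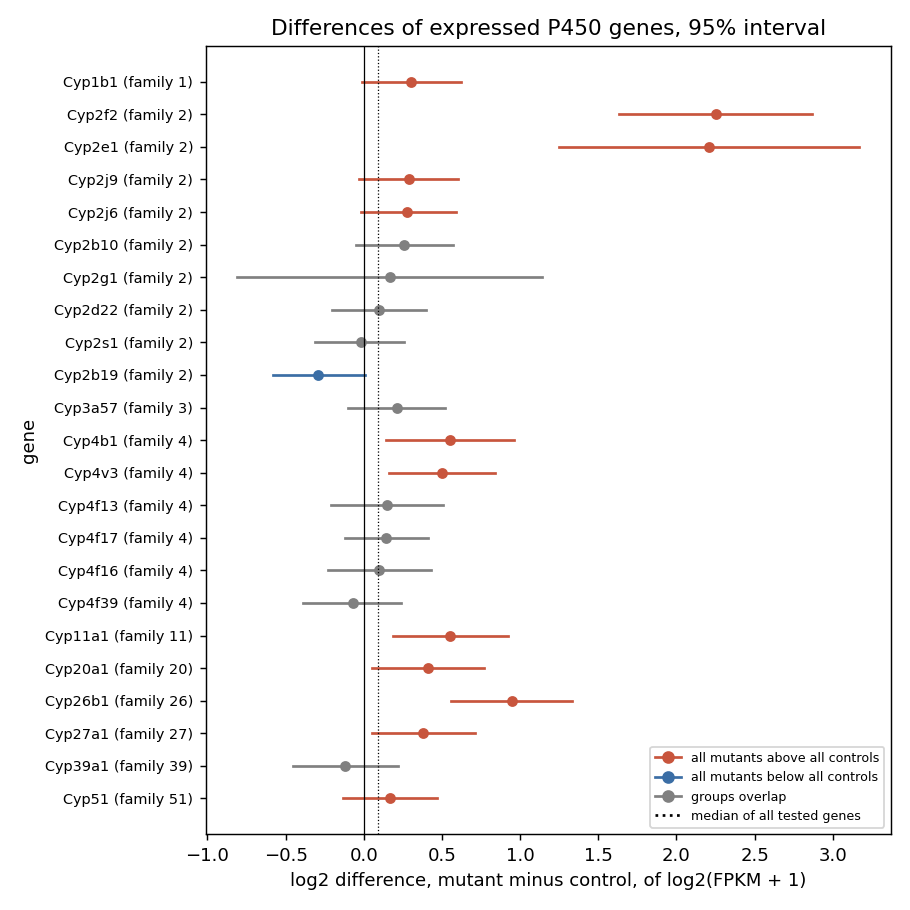
Log2 difference (mutant minus control, of log2(FPKM + 1)) of the 23 expressed P450 genes with 95% intervals, family in brackets, coloured by whether the 3 mutants all lie above or below the 3 controls. The dotted line marks the median of all tested genes, 0.09, and the range runs from -0.29 for Cyp2b19 to 2.25 for Cyp2f2. The interval drawn for Cyp2f2 is not read, as its values prompted the choice of the family.

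In family 1, Cyp1b1, which oxidises oestrogens, retinoids and polycyclic hydrocarbons, is at chr17:79701537-79715061. It stood at 7.41, 7.24 and 6.32 FPKM in controls and at 10.2, 7.52 and 8.95 in mutants. The groups were barely apart, with the lowest mutant 1.01 times the highest control, and the difference of 0.30 (SE 0.14, adjusted p = 0.467, limma) did not pass. Cyp1a1, the classic target of the aryl hydrocarbon receptor Ahr, fell just short of the floor and was not tested. It stood at 0.927, 0.181 and 0.288 FPKM in controls and at 1.5, 1.19 and 1.1 in mutants, on 44, 8 and 12 against 82, 71 and 65 reads. Each mutant was above each control.

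Ahr itself stood at 4.54, 4.3 and 3.48 FPKM in controls and at 8.0, 6.7 and 7.32 in mutants, without overlap. Its log2 difference was 0.71 (SE 0.13), with an adjusted p of 0.0803 by limma, and it was called by limma-voom. It had the smallest p among the 21 expressed of 32 regulators of P450 genes in the list used, which also holds the nuclear receptors for retinoids, oxysterols and bile acids. As deposited, all 21 had a log2 difference above 0 (71.3% of all tested genes did), with a median of 0.17. After median-of-ratios scaling 15 did (46.8% of all tested genes), with a median of 0.07. None of the 21 passed after adjustment, and 3 were higher at an unadjusted p under 0.05, near the 10.5% of all tested genes. The others with small p were Srebf1, a regulator of lipid synthesis, at 0.45 (adjusted p = 0.287), and the glucocorticoid receptor Nr3c1 at 0.35 (adjusted p = 0.381). Nr1i2, Nr1h4, Hnf4a and Nr5a1, receptors known from liver or adrenal, had means under 0.1 FPKM.

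Family 4 had 6 expressed genes of 20, and 5 of the 6 had a difference above 0, where 71.3% of all tested genes did. Cyp4b1 oxidises fatty acids and some protoxins and lies at chr4:115624725-115647723. It stood at 7.72, 6.1 and 5.15 FPKM in controls and at 12.2, 9.19 and 7.94 in mutants. The groups stood apart by a small margin, and the difference was 0.55 (SE 0.18, adjusted p = 0.27, limma). Cyp4v3, a fatty acid hydroxylase, stood at 1.18, 0.775 and 0.913 FPKM in controls and at 2.21, 1.39 and 1.72 in mutants. The difference was 0.50 (SE 0.15), given without a test because Cyp4v3 passed the floor only through the mutants. Words shared with pseudogenes or unnamed loci made up 8.26% for Cyp4b1 and 7.02% for Cyp4v3.

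Cyp4f39, which hydroxylates very long fatty acids for the ceramides of the skin barrier, had the highest mean of family 4. It stood at 8.46, 8.48 and 9.05 FPKM in controls and at 9.19, 6.75 and 8.8 in mutants. The groups overlapped, with a difference of -0.07 (adjusted p = 0.915) that was 0.05 without mutant 2. Its relatives Cyp4f13, Cyp4f16 and Cyp4f17 also overlapped, with differences of 0.15, 0.10 and 0.14 (adjusted p = 0.826, 0.89 and 0.752). Cyp4f16 shared 17.4% of its words with Cyp4f37 and Cyp4f17, so the split of reads among these 3 is uncertain. In family 4, then, Cyp4b1 and Cyp4v3 had separate groups and the 4 genes of the 4F subfamily did not.

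**Figure D4:**
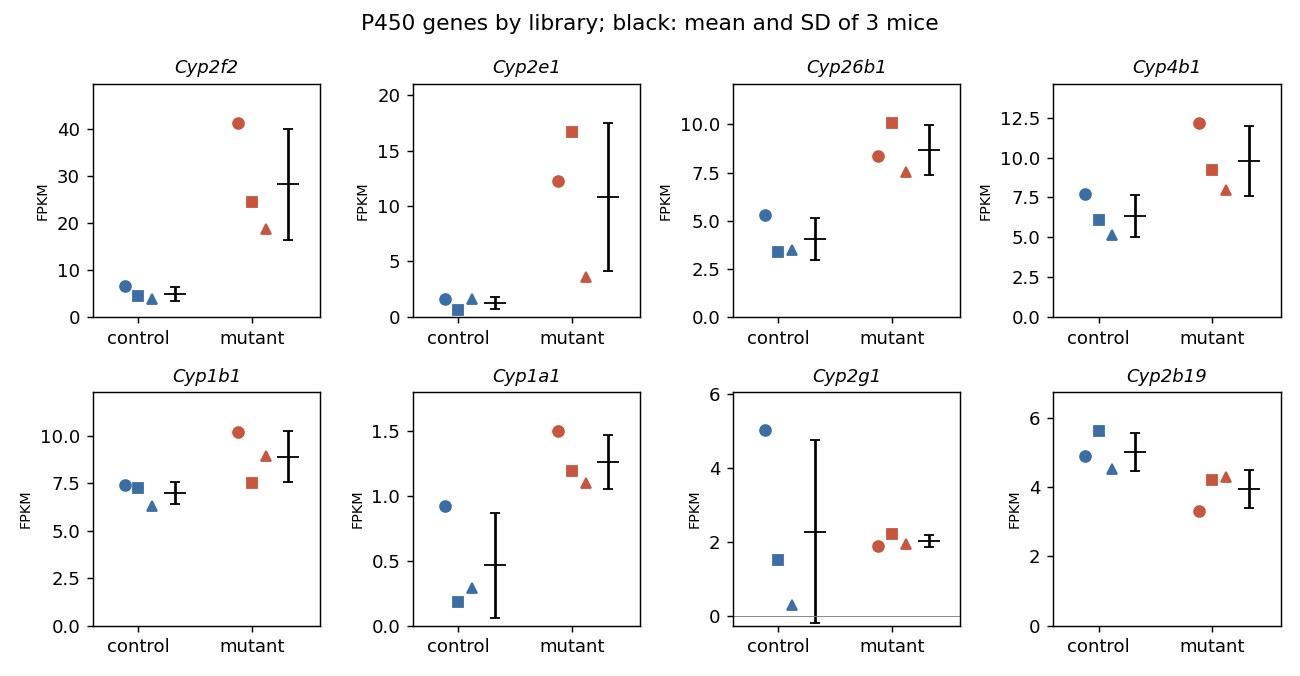
FPKM by library for P450 genes described in the text, 1 panel a gene with its own axis, with points for 3 control and 3 mutant mice and black marks for the mean and SD. Cyp2f2, Cyp2e1, Cyp26b1, Cyp4b1, Cyp1b1 and Cyp1a1 have every mutant above every control, and Cyp2b19 has every mutant below. Only Cyp2g1 overlaps, spanning 0.289 to 5.04 FPKM within the controls alone.

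Among the genes of retinoid, sterol and steroid chemistry, 4 of 5 expressed members had every mutant above every control as deposited, where 13% of all tested genes did. One of the 4, Cyp11a1, passed the floor only through the mutants, and another, Cyp51, overlapped after median-of-ratios scaling. Cyp26b1, which breaks down retinoic acid, is at chr6:84571414-84593908 on the minus strand. It stood at 5.29, 3.37 and 3.49 FPKM in controls and at 8.37, 10.1 and 7.53 in mutants, on 253 to 437 and 777 to 1041 reads. The lowest mutant was 1.42 times the highest control, and the means were 4.05 ± 1.08 and 8.65 ± 1.29 FPKM (SD, n = 3), a ratio of 2.14. The log2 difference of 0.95 (SE 0.17, 95% interval 0.56 to 1.33) had an adjusted p of 0.0777 by limma. It passed by limma-voom (0.044) and without control 1 (0.0397). It did not pass without mutant 2 (0.267), without mutant 1 (0.178) or with library sex as a covariate (0.178). The other 2 genes of family 26 were below the floor, and Cyp26a1 had 0 reads in all controls and 1, 2 and 1 in mutants.

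Genes upstream of retinoic acid were read from a list of 31 steroid and retinoid enzymes, of which 23 were expressed. As deposited, 16 had a difference above 0, with a median of 0.11, and 11 did after median-of-ratios scaling. These counts lie near the 71.3% and 46.8% of all tested genes. None of the 23 passed after adjustment. At an unadjusted p under 0.05, 7 were higher, where 10.5% of all tested genes were. By limma-voom 2 were called, Aldh1a1 and Adh1, where 1.48% of all tested genes were called higher. Aldh1a1, which makes retinoic acid from retinal, stood at 6.68, 3.97 and 6.91 FPKM in controls and at 32.1, 16.4 and 17.4 in mutants. All mutants were above all controls, with a difference of 1.71 (SE 0.27, adjusted p = 0.0549, limma). Adh1, an alcohol dehydrogenase that can oxidise retinol, differed by 1.30 (adjusted p = 0.0803). Hsd11b1, which reactivates glucocorticoids, differed by 1.11 (adjusted p = 0.138).

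Cyp11a1, the mitochondrial enzyme that cuts the side chain of cholesterol at the start of steroid synthesis, was the lowest expressed member. It stood at 1.03, 0.604 and 0.49 FPKM in controls and at 1.9, 1.35 and 1.25 in mutants, on 13 to 31 and 47 to 66 reads. The groups did not overlap, and the difference was 0.55 (SE 0.16). As Cyp11a1 passed the floor only through the mutants, the difference is given without a test. Cyp17a1, a later enzyme of the same pathway, lay just below the floor. It stood at 1.47, 1.27 and 0.654 FPKM in controls and at 0.527, 1.04 and 0.46 in mutants, with overlap and a lower mutant mean. Cyp27a1, a mitochondrial sterol hydroxylase of bile acid synthesis, stood at 3.98, 3.67 and 3.33 FPKM in controls and at 6.41, 4.41 and 4.53 in mutants. Its groups were apart, with a difference of 0.38 (SE 0.15, adjusted p = 0.362).

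Cyp51, the lanosterol demethylase of cholesterol synthesis, had the highest mean of all P450 genes. It stood at 17.0, 16.9 and 17.6 FPKM in controls and at 21, 17.9 and 19.3 in mutants. The groups were apart as deposited, and the difference was 0.17 (SE 0.13, adjusted p = 0.739, limma). The 11 other enzymes of cholesterol synthesis in the list used had a median of 0.08, near the 0.09 of all genes. Of these, 10 were above 0 as deposited (71.3% of all tested genes) and 5 after median-of-ratios scaling (46.8%), where the median was -0.03. None passed the test, none had an unadjusted p under 0.05 and none was called by limma-voom. The 3 with the smallest p, Tm7sf2, Sc4mol and Ebp, differed by 0.23, 0.22 and 0.19. Cyp39a1, an oxysterol hydroxylase, stood at 3.89, 3.3 and 2.7 FPKM in controls and at 3.23, 2.36 and 3.29 in mutants. Its groups overlapped, with a difference of -0.12 (adjusted p = 0.865). Cyp20a1, a member with no settled substrate, stood at 6.69, 4.91 and 7.93 FPKM in controls and at 9.33, 8.8 and 8.42 in mutants. The mutants were above all controls by a narrow margin, with a difference of 0.41 (SE 0.16, adjusted p = 0.367).

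By family, an expressed gene was found in 10 of 17 families. Family 2 held 51 genes in the table and 9 expressed ones, and its summed FPKM was 32.7, 25.6 and 21.5 in controls and 75.3, 62.5 and 43.5 in mutants. Family 4 held 20 genes with sums of 25.5, 22.3 and 22.1 FPKM in controls and 33.2, 24.9 and 26.7 in mutants. Family 3, with 9 genes, summed to 0.845 to 1.74 FPKM in controls and 1.7 to 1.77 in mutants. The sums of families 1, 2, 11, 20, 26, 27 and 51 did not overlap between groups as deposited. Those of families 3, 4 and 39 did (in family 4, 25.5 FPKM in control 1 and 24.9 in mutant 2). The sum of family 2 holds Cyp2f2, whose values prompted the choice of the family, and its groups overlapped with Cyp2f2 left out. That of family 11 is mostly Cyp11a1, which passed the floor only through the mutants. Nothing is drawn from the separation of families 2 and 11. Families 7, 8, 17, 19, 21, 24 and 46 had no expressed member. The 2C subfamily, 16 genes known from liver, summed to 0.543 FPKM or less in every library.

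The 79 genes below the floor had a median of 5 reads summed over the 6 libraries and at most 282. Of the 102 P450 genes, 41 had reads in all 6 libraries and 3 had none. In Cyp26a1, Cyp2c29 and Cyp2j5 all 3 controls were at 0 and all 3 mutants had 1 or 2 reads, which is at or under the 3 counts per library that a count of 0 allows. Other genes near the floor were Cyp7b1, an oxysterol hydroxylase with a mean of 0.663 FPKM, and Cyp2r1, a vitamin D hydroxylase with 0.559.

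The neighbourhood of Cyp2f2 was read to see whether nearby genes had similar values. Within 500 kb lie 7 other P450 genes, of which Cyp2g1 and Cyp2b19 were expressed. The nearest, Cyp2t4, begins 20.1 kb away and stood at 0.266 to 0.388 FPKM in controls and 0.304 to 0.403 in mutants. Cyp2a12, 82.5 kb away on the other side, was at 0.152 FPKM or less. Of the 17 other expressed genes in the window, the nearest were Egln2 at 25 kb, with a difference of 0.24 (adjusted p = 0.706, limma), and Rab4b at 34.8 kb, with 0.29 (adjusted p = 0.544). The highest difference among them was 0.60, in Numbl at 125 kb (adjusted p = 0.231). No neighbour approached the 2.25 of Cyp2f2.

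**Figure D5:**
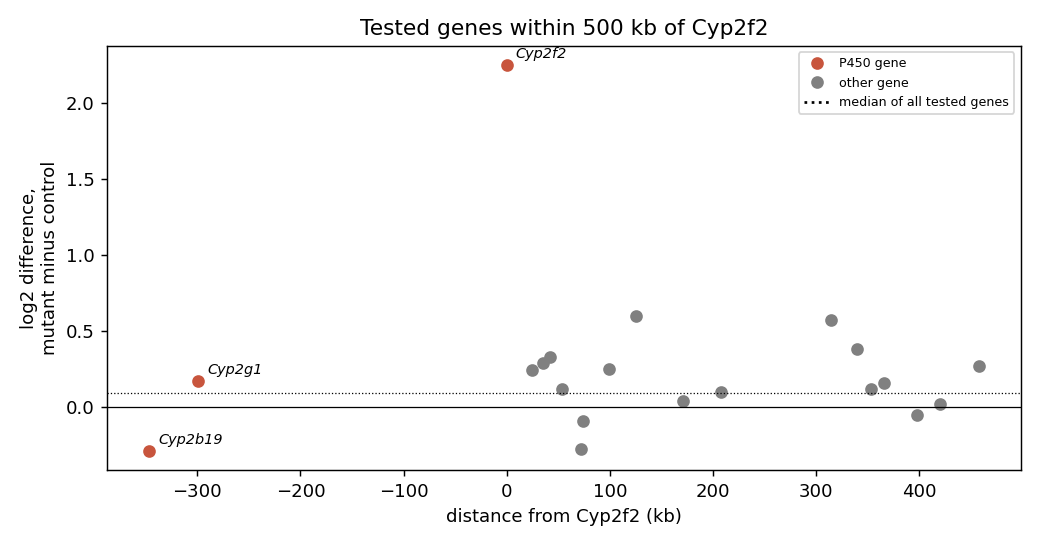
Log2 difference (mutant minus control) of tested genes against their distance from Cyp2f2 in kb, with P450 genes in colour and other genes in grey. Cyp2f2 at 2.25 stands alone, and the next highest gene, Numbl, is at 0.60.

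Over the genome, 101 members could be placed, and the clusters differed in how many were expressed: 6 of 15 on chromosome 7, 6 of 11 on chromosome 17, 3 of 18 on chromosome 4 and 0 of 19 on chromosome 19.

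The promoters of the 3 genes with the largest differences are shown because these differences were the largest; their shared direction follows from that choice. The RefSeq sequences (GRCm38.p6) run from 250 bases before to 50 bases after the start, 5′ to 3′ on the gene's strand, and capitals mark motif matches. Both strands were searched for 3 motifs. The first, CTTTGA, is a core of the TCF/LEF factors, which bind beta-catenin. A second, GCGTG, is the core bound by Ahr with its partner. The last, TATAAA, is the TATA box. No motif overlaps another in these 3 sequences.
Cyp2f2 promoter, chr7:27119705-27120004, plus strand: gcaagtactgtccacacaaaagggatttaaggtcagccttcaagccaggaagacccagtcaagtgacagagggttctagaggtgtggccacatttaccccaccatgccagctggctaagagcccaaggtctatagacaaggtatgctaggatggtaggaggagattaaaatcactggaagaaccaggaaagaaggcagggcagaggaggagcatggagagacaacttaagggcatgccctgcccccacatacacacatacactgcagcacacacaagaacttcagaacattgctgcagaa
Cyp2e1 promoter, chr7:140763569-140763868, plus strand: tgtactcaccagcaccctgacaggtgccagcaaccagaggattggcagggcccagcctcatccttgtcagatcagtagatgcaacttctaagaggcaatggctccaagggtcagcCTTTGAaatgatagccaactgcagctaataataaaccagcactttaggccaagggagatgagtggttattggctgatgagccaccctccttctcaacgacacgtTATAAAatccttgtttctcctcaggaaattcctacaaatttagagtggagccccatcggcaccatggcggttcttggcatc
Cyp26b1 promoter, chr6:84593761-84594060, minus strand: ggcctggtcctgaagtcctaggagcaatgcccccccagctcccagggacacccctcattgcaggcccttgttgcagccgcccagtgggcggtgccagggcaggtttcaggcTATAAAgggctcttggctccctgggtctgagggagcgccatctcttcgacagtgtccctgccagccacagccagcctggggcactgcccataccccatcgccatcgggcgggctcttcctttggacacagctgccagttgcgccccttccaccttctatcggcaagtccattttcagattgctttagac
The Cyp2f2 window held none of the 3 motifs. The Cyp2e1 window held CTTTGA 135 bases and TATAAA 31 bases before the start, and that of Cyp26b1 held TATAAA 139 bases before it. Over the 19 expressed members with an entry (20 promoters), CTTTGA was in 4, GCGTG in 8 and TATAAA in 2. Over all 32851 promoters the shares were 16%, 32.4% and 13.6%. A match is a run of letters, and whether any factor binds there was not measured.

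The partners of P450 enzymes were also read. Of 11 genes for redox partners, 10 were expressed and 10 had a difference above 0 as deposited, with a median of 0.23, and 9 after median-of-ratios scaling (median 0.12). None passed the test by limma or limma-voom, and 2 were higher at an unadjusted p under 0.05, where 10.5% of all tested genes were. Of all tested genes, 71.3% were above 0 as deposited and 46.8% after that scaling. Por stood at 13.7, 9.08 and 14.4 FPKM in controls and at 21.5, 15.2 and 15.9 in mutants. The groups were apart, with a difference of 0.48 (SE 0.20, adjusted p = 0.401, limma). Cyb5, the cytochrome b that aids some P450 reactions, differed by 0.52 (adjusted p = 0.295), and the ferredoxin Fdx1 by 0.10 (adjusted p = 0.917). All 12 genes of haem synthesis and breakdown were expressed and above 0 as deposited, with a median of 0.23, and 8 were above 0 after median-of-ratios scaling (median 0.12). None of the 12 passed by limma or limma-voom. Against 10.5% of all tested genes, 2 of the 12 were higher at an unadjusted p under 0.05. Of these, Alad, an early enzyme of haem synthesis, differed by 0.46 (adjusted p = 0.298).

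Markers of several cell types differed between the groups in their values, though none passed by limma after adjustment. Of 7 macrophage markers, 6 had every mutant above every control, and their summed FPKM was 79.5 to 140 in controls and 198 to 363 in mutants. Of 5 mast cell markers, 4 did, with sums of 17.2 to 29.1 and 41.3 to 74.4 FPKM. Of 10 fibroblast markers, 7 did, with sums given above, where 13% of all tested genes did. Sums for sebaceous markers were 75.5 to 78.2 FPKM in controls and 52.6 to 91.1 in mutants, and those for adipocyte markers, most of it Fabp4, 328 to 354 and 262 to 504. At an unadjusted p under 0.05, 6 of 10 fibroblast, 7 of 7 macrophage, 4 of 5 mast cell and 4 of 6 adipocyte genes were higher. So were 2 of 6 sebaceous, 1 of 7 keratinocyte and 1 of 6 endothelial genes. Of all tested genes 10.5% were higher at that threshold, so the keratinocyte and endothelial counts lie near that share. The 4 adipocyte genes were Adipoq, Plin1, Cidec and Retn. By limma-voom 5 fibroblast, 4 macrophage, 3 mast cell and 1 endothelial genes were called higher, as were 1.48% of all tested genes. Medians of the other lists were 0.23 for keratinocyte, -0.19 for hair follicle, 0.10 for sebaceous, 0.85 for adipocyte, 0.21 for endothelial, 0.24 for skeletal muscle, 0.31 for smooth muscle and pericyte, 0.22 for Schwann and -0.10 for melanocyte markers. Their part in the P450 values, Cyp2f2 included, was not tested.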

How the data were processed

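Total RNA from ventral dermis of 3 mutant and 3 control mice was made into stranded libraries, per the labels' protocols. The aligner GSNAP, the counter HTSeq and the build mm10 come from the submitters' processing notes. Versions, annotation and settings: not given in the sources used here. All values analysed, 1 per gene and library, are the FPKM that the authors deposited. FPKM steps gave whole reads for 23412 of 23412 genes, of which 1820 were at 0 throughout and 1448 seen in 1 library, where nothing could be checked. Depth was 7799565 to 13478910 gene reads.

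Genes averaging 1 FPKM or more were tested on log2(FPKM + 1) with limma 3.58.1 in R 4.3.3 (two-sided, intensity trend, prior degrees of freedom 5.44, Benjamini-Hochberg adjustment over all tested genes, threshold 0.05). On simulated data for this comparison, 87.5% of 200 genes changed 3-fold were called among 12560. The changed genes were drawn above a higher floor than 1 FPKM, with noise independent between genes. The share therefore does not cover the lowest P450 genes or effects shared by a library. An exact permutation test of 3 against 3 cannot go below 0.1. As each library came from its own mouse per the labels, the p-values reflect variation among mice. The P450 members, the pathway and marker lists and the tests were chosen with earlier results of these data known. Every expressed P450 gene is named. Values by library are given for Cyp2f2, for genes with separate groups or unadjusted p under 0.05, for the highest gene of each family and for those next to the floor. Of the other lists, at most 3 genes with the smallest p were to be named, besides Por, Fdx1 and Ahr. Cyp2g1, Cyp1a1, Cyp7b1 and Cyp2r1, the neighbours of Cyp2f2, regulators with means under 0.1 FPKM, Tbxas1, Scgb1a1 and the fibroblast and adipocyte markers named were added after their values were seen.

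Of the table's symbols, 23004 had a GENCODE M21 position (GRCm38); coordinates and transcripts come from it and promoters from RefSeq. The lists were redox partners, haem, P450 regulators, second-phase enzymes, P450 enzymes with other symbols, steroid and retinoid enzymes, cholesterol synthesis, and 13 lists of cell type markers. Alternatives were other pseudocounts, floors and scalings, limma without trend, limma-voom on recovered reads, library sex as a covariate, a replicate block, and leaving out libraries.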

Additional observations from a re-analysis of the deposited data

How the results depend on the processing

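The difference of Cyp2f2, a description, ran from 1.94 to 2.55 over 17 settings. Cyp2e1 (1.82 to 2.85) and Cyp26b1 (0.84 to 1.12) kept their direction in all 17 and passed in 3 each, 1 of which, without controls 1 and 2, has a lone control assumed to vary like the mutants. Their adjusted p reached 0.35 and 0.267 over the settings. Genes called higher over the whole table, 18 as reported, numbered 10 with library sex as a covariate, 10 with limma without trend, 186 by limma-voom, 4 with no filter, 9 with a pseudocount of 0.1, 32 with quantile normalization and 198 without controls 1 and 2; leaving out 1 library each gave 3 (without mutant 2) to 189 (without control 3). Genes called lower, 0 as reported, numbered 1 with library sex, 4 by limma-voom and 68 without controls 1 and 2, and 0 to 4 on leaving out 1 library. Nothing is read from the calls of Cyp2f2. The calls of the other P450 genes are given without the fit that has a lone control. Cyp26b1 was called higher by limma-voom and without control 1. Cyp2e1 was called higher without control 3 and without mutant 3. In the fit with the lone control, the difference of Cyp2g1 was 1.23. None was called with no filter. The median difference of expressed P450 genes, 0.26 as reported, was 0.41 with library sex and without controls 1 and 2, 0.48 at a floor of 5 FPKM, 0.19 with median-of-ratios scaling, 0.39 and 0.32 with pseudocounts of 0.1 and 0.5, 0.13 with quantile normalization, and 0.18 to 0.34 on leaving out 1 library. That of all tested genes turned to -0.04 by limma-voom, -0.01 with median-of-ratios scaling and -0.03 with quantile normalization. Of 23 P450 genes, 17 never changed sign. Cyp2s1 was at 0.06 with library sex and without controls 1 and 2, and at -0.11 to 0.06 on leaving out 1 library. Cyp39a1 was at 0.09 with library sex and without controls 1 and 2. Cyp2d22 was at -0.01 by limma-voom and -0.03 with quantile normalization, and Cyp4f16 at -0.01 and -0.05. On leaving out 1 library, Cyp2g1 ran from -0.36 to 0.75 and Cyp4f39 from -0.15 to 0.05. The cause of these changes was not tested. With library sex as a covariate, the group difference rests on control 3 alone.

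With the replicate number as a block, 67 genes were called higher and 1 lower, and of the P450 genes other than Cyp2f2 none was called. Deviations of same-numbered libraries correlated at 0.00159, 0.0367 and -0.0819, and those of differently numbered ones at -0.273 to 0.284. With so few libraries a group, these values cannot settle whether the numbers pair the mice. Depth limits the lowest genes: Cyp2g1 had 8 reads in control 3.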

Other observations

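The enzymes that act after P450 oxidation were read from a list of 47, of which 28 were expressed and 24 had a difference above 0 (23 after median-of-ratios scaling), with a median log2 difference of 0.27 against 0.09 over all tested genes. None passed by limma with Benjamini-Hochberg adjustment or by limma-voom, and 5 were higher at an unadjusted p under 0.05. Of all tested genes, 10.5% were higher at that threshold. Above 0 were 71.3% of all tested genes as deposited and 46.8% after median-of-ratios scaling. The carboxylesterase Ces1d, which hydrolyses esters in fat and liver, stood at 4.51, 2.15 and 1.8 FPKM in controls and at 10.1, 10.7 and 5.36 in mutants. Its groups did not overlap, and the difference was 1.36 (SE 0.29, adjusted p = 0.103, limma). The glutathione transferase Gstm1 differed by 0.58 (adjusted p = 0.313) and the sulphotransferase Sult1a1 by 0.64 (adjusted p = 0.321).

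Among P450 enzymes whose symbols do not begin with Cyp, Ptgis, the prostacyclin synthase, stood at 0.403, 0.288 and 0.841 FPKM in controls and at 2.92, 1.07 and 1.21 in mutants. Every mutant was above every control, but its control mean was 0.51 FPKM, so it passed the floor only through the mutants and is given here without a test. Tbxas1, the thromboxane synthase, was below the floor of 1 FPKM.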
